A study of Mus musculus with 43 samples.

Results

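The comparison described here is that of SCFA-treated with control female retinas at 7 days post-laser (dpl), in 5 of the 43 libraries of the series and over all genes of the deposited count table. Its members were female control replicates 1 and 3 and female SCFA replicates 1, 2 and 3, and 16705 of the 54532 genes in the table passed the filter on low counts and were tested. Female control replicate 2 was left out because it holds Y-linked transcripts. Female SCFA replicate 4 was left out because it is among the last 12 columns of the table, whereas the other libraries are among the first 31. Both choices are varied below.

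All animals were C57BL/6J mice, 9 weeks old when laser burns were placed at the level of the retinal pigment epithelium (RPE) to provoke choroidal neovascularization (CNV). Controls and SCFA animals both received the laser lesion, so that the groups differ by design in the drinking water, and there is no unlesioned group. No control water matched for sodium is described. SCFA animals drank water with 67.5 mM sodium acetate, 40 mM sodium propionate and 25 mM sodium butyrate, beginning before the lesion and ending at collection. The masses per litre printed beside these molarities rank butyrate and propionate the other way round, so the doses of both are uncertain. Each library was a pool of 2 retinas from 2 different mice, without separation of the lesion from the rest of the retina.

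SCFAs are the end products of bacterial fermentation of dietary fibre. They are sensed by G protein-coupled receptors, enter cells through monocarboxylate transporters, and in the case of butyrate inhibit histone deacetylases. In the laser model, rupture of Bruch's membrane lets choroidal vessels grow towards the retina, while resident microglia and Müller glia respond to the injury.

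Library totals ran from 14826957 to 19741473 counts. Transcripts of the 4 Y-linked genes examined were at 0 counts in all 5 libraries, and *Xist*, the RNA of the inactive X chromosome, was between 534 and 868 CPM, a unit that divides counts by the size of their library. Messenger RNAs of the mitochondrial genome took 6.78% to 9.26% of counts. SCFA replicate 3 stood apart from the rest, with rank correlations of 0.973 to 0.982 against the other libraries, which correlated at 0.985 to 0.989 among themselves. Markers of neighbouring tissues also varied by library. The summed level of the lens list was 77.0 to 82.1 CPM in the controls and 81.9, 252 and 818 CPM in SCFA replicates 1, 2 and 3, while that of the RPE and pigment list was 978 CPM in control replicate 1, 272 CPM in control replicate 3 and 304 to 439 CPM with SCFA.

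No gene met the thresholds for a differentially expressed gene (DEG), an adjusted p under 0.1 with an absolute log2 fold change over 1, in edgeR's quasi-likelihood test (0 of 16705, 0.00%). Without adjustment, 846 genes (5.06%) were higher and 643 (3.85%) lower with SCFA at p under 0.05. In 2272 genes (13.6%) all 3 SCFA libraries lay above both controls, and in 2325 genes (13.9%) all 3 lay below both. DESeq2, at the same thresholds, called 6 of the 9800 genes to which it gave an adjusted p (0.0612%), all of them higher with SCFA. They were *Gm10925*, *Arl6ip6*, *Cntn4*, *Glra3*, *Crygc* and *Crygb*. The smallest adjusted p of edgeR was 0.237, for *Gm10925*, and for every other gene it was 0.552 or more. The values below are therefore descriptions of these 5 libraries, and a gene that separates both groups is set against the shares of 13.6% and 13.9% found over all genes.

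**Figure D1:**
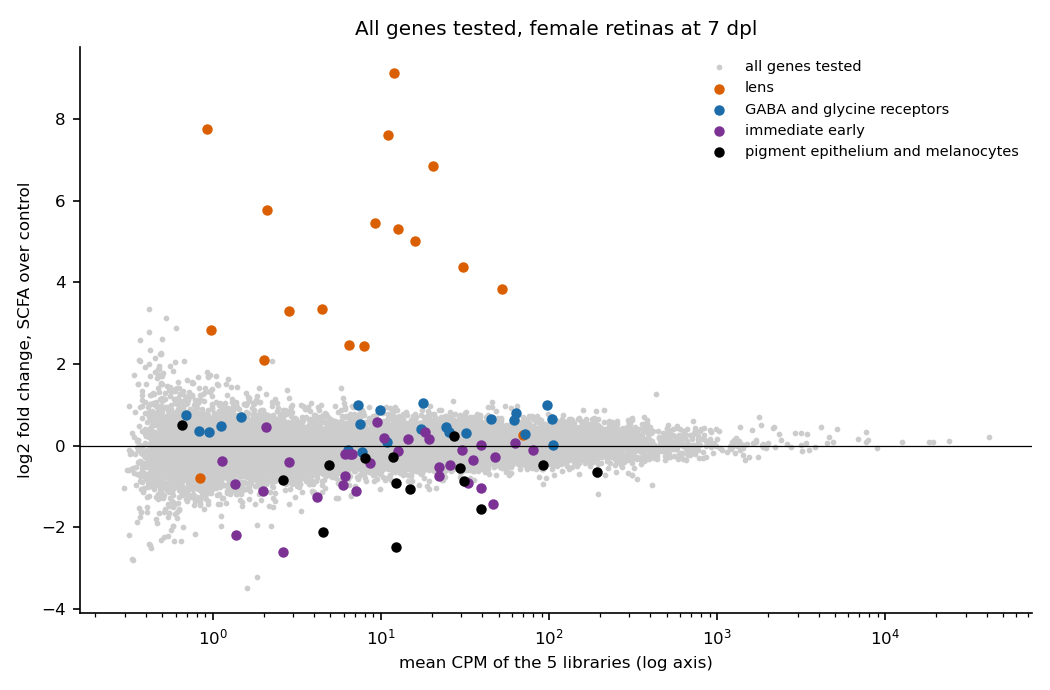
Log2 fold change of SCFA over control (y axis) against the mean CPM of the 5 libraries (x axis, log scale) for the 16705 genes tested in grey, with members of the lens, GABA and glycine receptor, immediate early and pigment lists in colour. Lens genes reach the highest fold changes, and most receptor genes lie above 0.

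The fold changes followed the base composition of the transcripts. Over 14242 protein-coding genes the rank correlation between log2 fold change and GC content was -0.459, given as a description, since all of these values come from the same 5 libraries. In 5 classes of equal size and rising GC content the median log2 fold change was 0.20, 0.09, 0.00, -0.10 and -0.21. SCFA replicate 3 and the controls lay at opposite ends of this pattern. The lowest class deviated from the mean of the libraries by 0.22 in SCFA replicate 3 and by -0.15 and -0.08 in control replicates 1 and 3, and the highest class by -0.28 in SCFA replicate 3 and by 0.15 and 0.08 in the controls. The correlation was -0.298 without SCFA replicate 3 and -0.317 without control replicate 1. For the fold changes of SCFA over control in males at 7 dpl it was -0.491, and in females at 3 dpl -0.171. Median GC content was 43.1% among protein-coding genes higher with SCFA at unadjusted p under 0.05, 55.6% among those lower and 49.9% among all. The part of GC content in the results was not tested beyond removing its trend as an offset. With the offset the list medians below became 0.34 for horizontal (from 0.49), 0.36 for bipolar (0.24), -0.10 for ganglion cell (-0.17), -0.23 for immediate early (-0.37), -0.15 for complement (-0.29), -0.11 for histone deacetylase (-0.21) and -0.80 for mitochondrial tRNA and rRNA genes (-0.54).

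**Figure D2:**
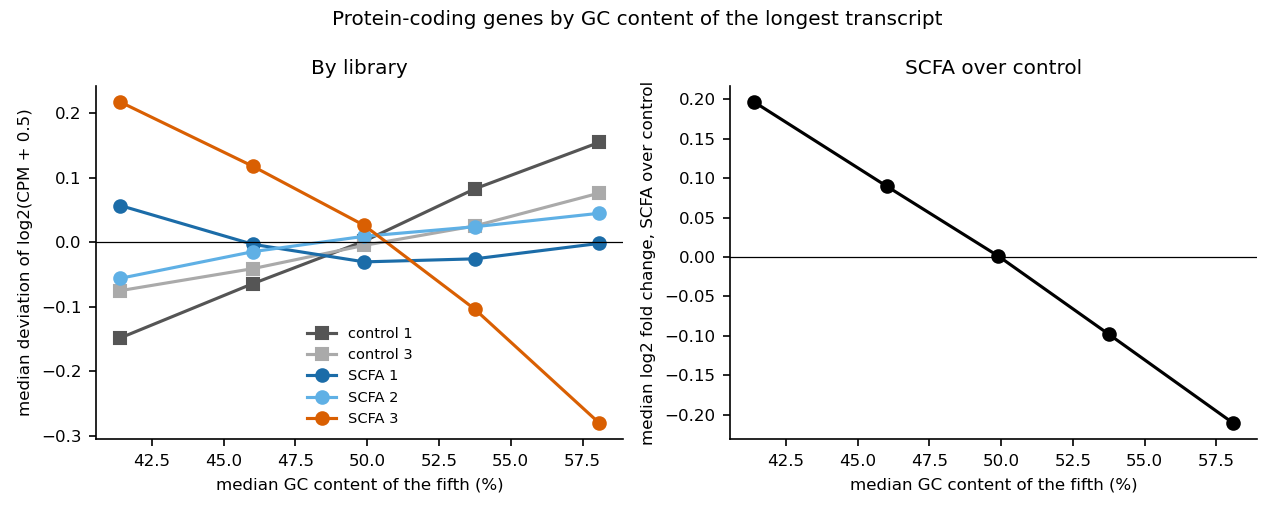
Left, median deviation of log2(CPM + 0.5) from the mean of the 5 libraries (y axis) for 5 classes of protein-coding genes by GC content in percent (x axis), with a line for each library; right, the median log2 fold change of each class. SCFA replicate 3 falls from 0.22 to -0.28, control replicate 1 climbs from -0.15 to 0.15, and the median fold change falls from 0.20 to -0.21.

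Subunits of inhibitory neurotransmitter receptors were higher with SCFA as a group. Of 25 GABA and glycine receptor genes 23 were tested, 21 had a positive log2 fold change, and the median was 0.48, against -0.01 over all genes, of which 8117 were positive. In 11 of the 23 the SCFA libraries all lay above both controls, and in 0 all lay below. These receptors carry the inhibition that amacrine and horizontal cells exert on bipolar and ganglion cells. The list's summed level was 578 and 566 CPM in control replicates 1 and 3, and 885, 655 and 916 CPM in SCFA replicates 1, 2 and 3. All SCFA libraries lay above both controls, and replicate 2 was the SCFA library nearest to them, being the lowest of the 3 in 19 of the 23 genes. The median was 0.37 with the GC offset, 0.71 without SCFA replicate 2 and 0.38 without SCFA replicate 3. It was 0.37 with control replicate 2 added, 0.42 with SCFA replicate 4 added and 0.29 with all libraries, which hold both.

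*Glrb*, the beta subunit that anchors glycine receptors at synapses, was at 49.0 and 39.9 CPM in the controls and 88.3, 61.8 and 80.2 CPM with SCFA (log2 fold change 0.79, SE 0.19). *Glra3*, the alpha-3 subunit of glycine receptors, was at 11.9 and 9.70 CPM against 25.1, 15.4 and 26.2 CPM (1.04, SE 0.25). The groups did not overlap in either gene. In each the lowest SCFA library was replicate 2, and edgeR's adjusted p was 0.552. *Glra3* was among the DEGs of DESeq2. Receptors for glutamate, the transmitter of photoreceptors and bipolar cells, were split, with 14 of 25 tested genes positive and a median of 0.03. In the GABA and glycine receptor list 4 members belong to the study's own list of genes for this comparison, which was chosen on 4 of these 5 libraries.

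**Figure D3:**
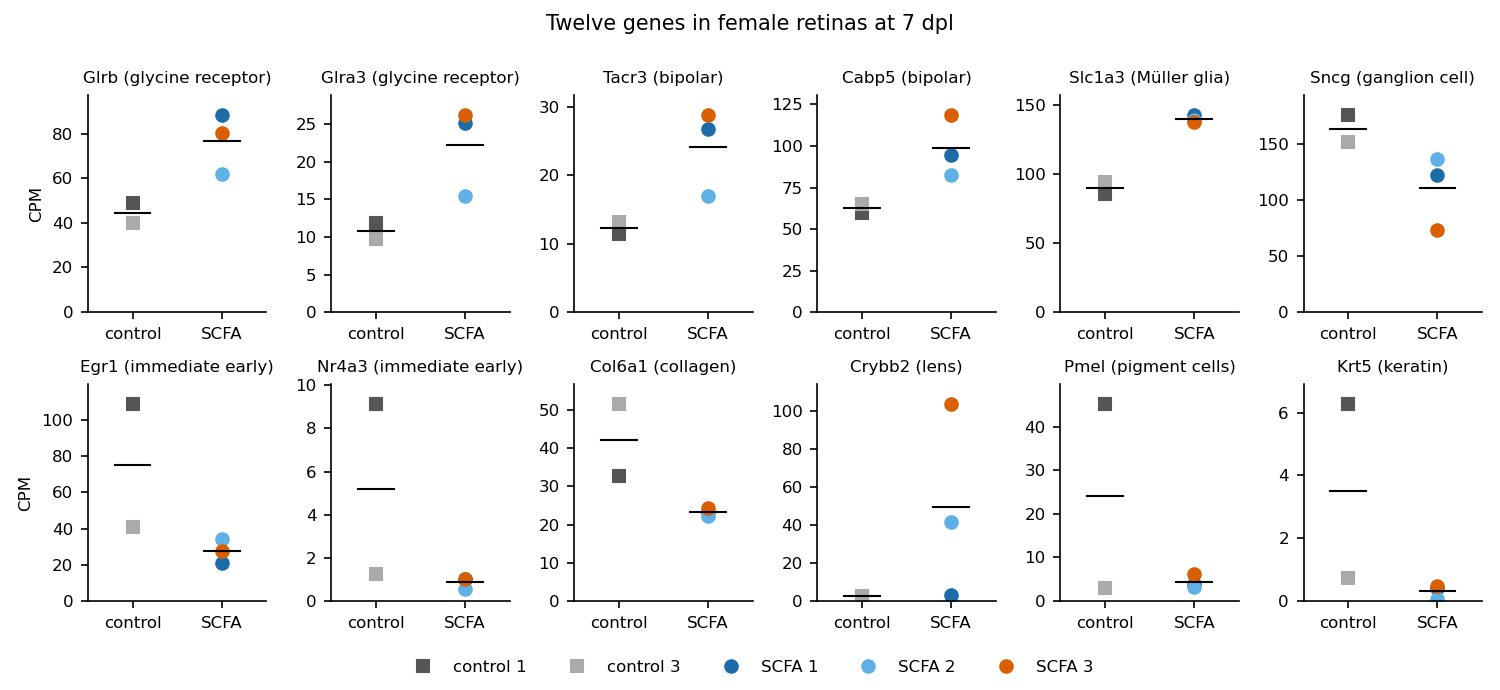
Level in CPM (y axes, from 0) of single genes in control replicates 1 and 3 (squares) and SCFA replicates 1, 2 and 3 (circles), with the group means as bars. *Glrb*, *Glra3*, *Tacr3* and *Cabp5* separate the groups with SCFA replicate 2 nearest to the controls, whereas in *Egr1*, *Nr4a3*, *Pmel* and *Krt5* control replicate 1 stands apart.

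Among markers of inner retinal cells, those of amacrine, horizontal and bipolar cells and of Müller glia were mostly positive, and those of ganglion cells mostly negative. In bulk RNA of whole retinas, a change in the number of cells of a type and a change in RNA per cell cannot be told apart. Of 20 bipolar markers 17 were positive (median 0.24), and all SCFA libraries lay above both controls in 8 and below both in 0. The median was 0.16 with control replicate 2, 0.20 with SCFA replicate 4 and 0.13 with all libraries. *Tacr3*, the neurokinin receptor of a subset of OFF bipolar cells, was at 11.4 and 13.2 CPM in the controls and 26.7, 17.0 and 28.8 CPM with SCFA (0.98, SE 0.24, or 0.45 with control replicate 2). *Sebox*, a homeobox gene, was at 38.4 and 38.2 CPM against 58.2, 51.5 and 65.0 CPM (0.61, SE 0.16). *Cabp5*, a calcium-binding protein of bipolar cells, was at 59.8 and 65.0 CPM against 94.8, 82.6 and 119 CPM (0.66, SE 0.18). The groups did not overlap in any of them.

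Of 25 amacrine markers 20 were positive, with a median of 0.35. This median was 0.09 with control replicate 2 added, 0.30 with SCFA replicate 4 added and 0.22 without SCFA replicate 1. *Vip*, a neuropeptide of a sparse amacrine type, was at 14.6 and 12.5 CPM in the controls and 26.2, 14.1 and 27.8 CPM with SCFA, so that SCFA replicate 2 lay between the controls (0.74, SE 0.27). *Slc5a7*, the choline transporter of starburst amacrine cells, was at 5.52 and 4.81 CPM against 11.2, 5.46 and 10.5 CPM (0.81, SE 0.31). In this gene as well SCFA replicate 2 lay within the control range. Of 8 horizontal cell markers 6 were tested and 5 were positive, with a median of 0.49. It was 0.31 without control replicate 1, 0.13 with control replicate 2, 0.39 with SCFA replicate 4 and 0.02 with all libraries. *Onecut3*, a transcription factor, was at 0.703 and 0.989 CPM against 2.32, 1.55 and 2.32 CPM (1.29, SE 0.45). *Prox1*, a homeobox factor of horizontal and AII amacrine cells, was at 55.6 and 74.1 CPM against 94.3, 79.6 and 115 CPM (0.57, SE 0.19).

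Müller glia markers were positive in 10 of 11 genes (median 0.41), and all SCFA libraries lay above both controls in 5. The median was 0.13 with control replicate 2, 0.41 with SCFA replicate 4 and 0.06 with all libraries. *Slc1a3*, the glutamate transporter GLAST, was at 85.4 and 93.9 CPM in the controls and at 143, 139 and 138 CPM with SCFA (0.64, SE 0.15). The 3 SCFA libraries were close to each other here, including replicate 2. *Aqp4*, the water channel of glial endfeet, was at 79.1 and 84.4 CPM against 129, 95.3 and 132 CPM (0.54, SE 0.18). *Abca8a*, a lipid transporter, was at 77.3 and 103 CPM against 144, 134 and 119 CPM (0.55, SE 0.17). Genes of reactive gliosis did not share this direction as a list, with 10 of 18 tested genes positive and a median of 0.06.

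Of 16 ganglion cell markers 3 were positive, with a median of -0.17. The median was -0.03 without SCFA replicate 3, -0.26 without SCFA replicate 2, -0.11 without control replicate 1 and -0.39 with control replicate 2. With SCFA replicate 4 added it was -0.09. *Sncg*, gamma-synuclein, was at 176 and 152 CPM in the controls and 122, 136 and 72.9 CPM with SCFA (-0.57, SE 0.22), so that the groups did not overlap. *Nefh*, the heavy neurofilament chain of large axons, was at 111 and 87.6 CPM against 78.5, 95.3 and 53.1 CPM and overlapped (-0.39, SE 0.22). *Slc17a6*, the vesicular glutamate transporter of ganglion cells, went the other way, at 38.3 and 28.8 CPM against 35.7, 43.1 and 47.0 CPM (0.32, SE 0.18). Its groups also overlapped.

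Photoreceptor markers were near the median of all genes. Of 24 rod markers 15 were positive (median 0.09), and of 13 cone markers 8 were (median 0.01). *Pdc*, phosducin, a regulator of phototransduction, was at 3780 and 3019 CPM in the controls and 4319, 4059 and 5607 CPM with SCFA (0.46, SE 0.20). The groups did not overlap, and SCFA replicate 3 was highest. In cones, *Thrb*, the thyroid hormone receptor that specifies M cones, was at 70.4 and 77.8 CPM against 102, 88.9 and 130 CPM (0.53, SE 0.18), whereas its partner *Rxrg* was at 11.2 and 10.2 CPM against 5.36, 9.38 and 6.54 CPM (-0.59, SE 0.26).

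**Figure D4:**
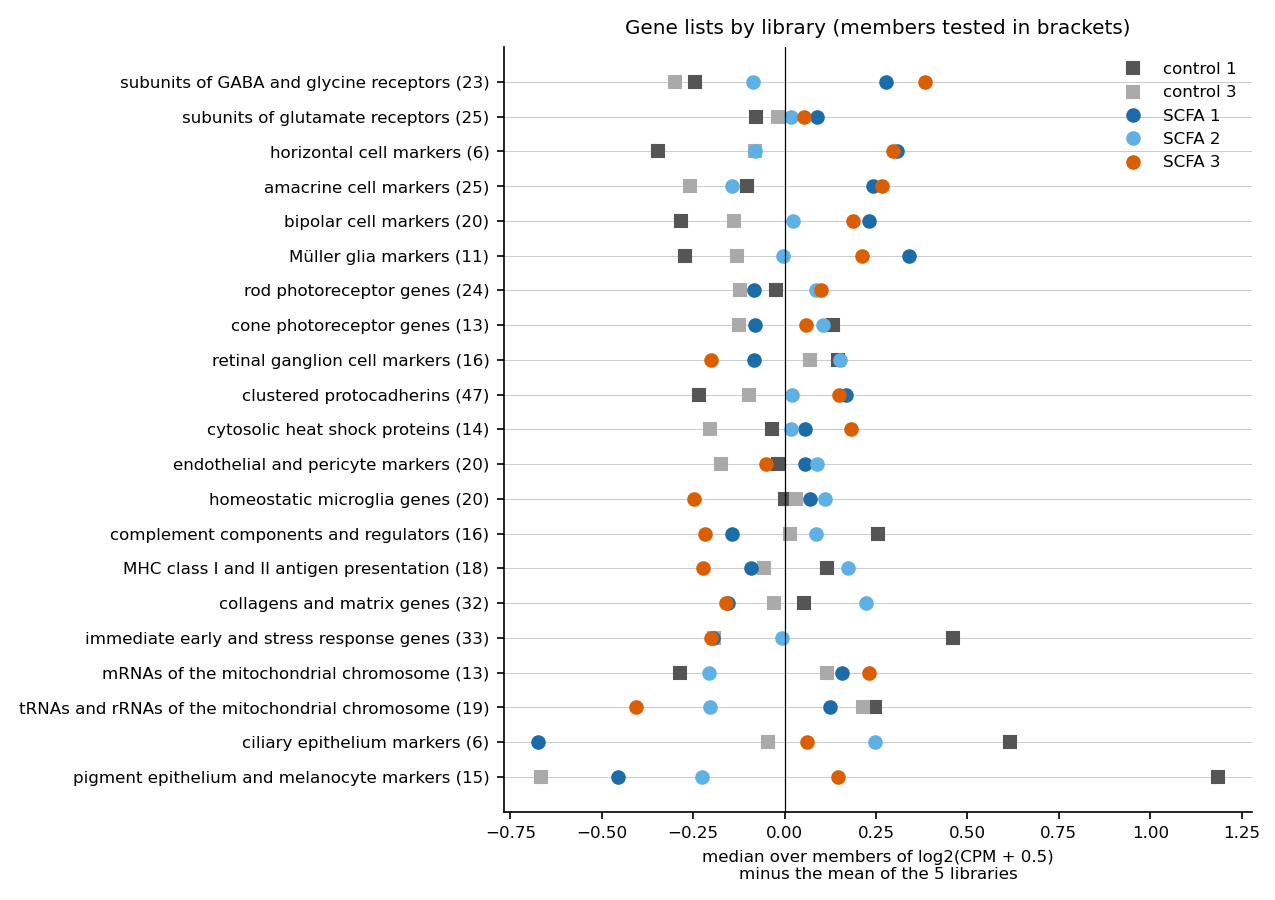
Median over the members of each gene list of log2(CPM + 0.5) minus the mean of the 5 libraries (x axis), with a point for each library and a line for each list. The 3 SCFA libraries lie to the right of both controls in the GABA and glycine receptor list, with SCFA replicate 2 at -0.09, and control replicate 1 lies at 0.46 in the immediate early list and at 1.19 in the pigment list.

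Of the genes named by the study for females at 7 dpl, *Cmip*, which encodes a signalling adaptor of T cells, was at 6.23 and 9.23 CPM in the controls and 15.8, 12.1 and 15.0 CPM with SCFA (0.90, SE 0.24). *Esrrg*, an orphan nuclear receptor that controls oxidative metabolism, was at 38.6 and 43.5 CPM against 83.9, 52.4 and 103 CPM (0.96, SE 0.24). *Epha3*, a receptor for ephrins in axon guidance, was at 3.46 and 3.89 CPM against 9.23, 5.63 and 7.79 CPM (1.04, SE 0.29). The groups did not overlap in these 3 genes. In *Cd74*, the invariant chain of MHC class II, they did, with 12.1 and 6.86 CPM against 1.65, 10.5 and 4.76 CPM (-0.76, SE 0.50). *C1qa*, a chain of the complement component C1q, likewise overlapped, at 15.7 and 13.3 CPM against 8.56, 15.5 and 5.11 CPM (-0.57, SE 0.34). SCFA replicate 2 lay inside the control range in *Cd74* and *C1qa*.

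The study's list for this comparison was drawn from control replicates 1 and 3 and SCFA replicates 1 and 3, so its direction in these libraries is not independent evidence. SCFA replicate 2 took no part in that choice. Of the 37 genes of the list that were higher with SCFA, replicate 2 lay above both controls in 30, against 31.7% of all genes, and was the SCFA library nearest to the controls in 34. The median log2 ratio of SCFA replicate 2 to the controls over these genes was 0.44, and that of replicates 1 and 3 was 1.08. Here and for the lower genes, counts and ratios use the control libraries that entered the choice, so they are not independent of it. The shares over all genes come from genes not chosen on those controls, so they are not a like measure. Of the 8 lower genes, replicate 2 lay below both controls in 2, against 32.3% of all genes, with a median log2 ratio of -0.15, where replicates 1 and 3 had -1.14.

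Of the 10 established protein-coding genes higher with SCFA that had the smallest p, a log2 fold change over 1 and no overlap between groups, 6 were lens genes. Among the others, *Arl6ip6*, a membrane protein, was at 14.5 and 17.6 CPM in the controls and 41.2, 25.7 and 35.2 CPM with SCFA (1.08, SE 0.22). *Il1rapl1*, an organizer of excitatory synapses, was at 0.803 and 0.726 CPM against 2.68, 2.48 and 4.58 CPM (2.07, SE 0.44). *Cntn4*, an axonal adhesion molecule of the contactin family, was at 26.7 and 28.2 CPM against 57.8, 38.8 and 75.5 CPM (1.06, SE 0.23). *Gm10925* had the smallest p of all genes, with 242 and 224 CPM against 488, 688 and 515 CPM (1.27, SE 0.19). It is an unprocessed pseudogene at chr1:24613974-24614651 (GRCm38) that copies mitochondrial sequence, so that its reads could also come from mitochondrial transcripts. It was a DEG in DESeq2, in a robust fit of edgeR and without SCFA replicate 1 or SCFA replicate 3.

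The clustered protocadherins, adhesion molecules whose combinations give neurons their surface identity, were tested in 47 of 57 members. Of these 38 were positive (median 0.31), and all SCFA libraries lay above both controls in 16 and below both in 0. The median was 0.50 without control replicate 3 and 0.25, with 30 positive, without control replicate 1. *Pcdhb6* was at 3.72 and 4.42 CPM in the controls and 8.36, 6.35 and 7.79 CPM with SCFA (0.89, SE 0.26). *Pcdhb12* was at 3.26 and 2.44 CPM against 4.80, 4.42 and 6.54 CPM (0.87, SE 0.31). Members of these clusters are close in sequence, and how reads matching several of them were counted is not given in the sources used here, so single members are uncertain.

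Immediate early genes, which neurons and glia transcribe within minutes of stimulation, had negative fold changes in most members. The direction and the size of the list's median depended on the controls used. Of 33 tested genes 8 were positive, with a median of -0.37. In edgeR's test 10 lower genes and 1 higher gene had an unadjusted p under 0.05, against 3.85% and 5.06% of all genes. The summed level was 932 CPM in control replicate 1, 535 CPM in control replicate 3 and 551 to 584 CPM with SCFA. Without control replicate 1 the median was 0.16 and 23 genes were positive, and without control replicate 3 it was -0.65. With control replicate 2, the pool that holds Y-linked transcripts, added to both controls it was -0.77 with 6 genes positive. With SCFA replicate 4 added it was -0.41 with 8 positive, and with all libraries of the groups -0.72 with 4 positive. Control replicate 1 also had the highest summed level of pigment markers, and the part of this in the values was not tested. *Egr1*, a zinc finger factor, was at 109 and 40.9 CPM in the controls and 20.9, 34.5 and 27.7 CPM with SCFA (-1.44, SE 0.31). *Nr4a3*, an orphan nuclear receptor, was at 9.14 and 1.25 CPM against 1.03, 0.552 and 1.01 CPM (-2.60, SE 0.61). In both the groups did not overlap, but control replicate 3 lay much nearer to the SCFA libraries than to control replicate 1. *Npas4*, the activity-dependent factor of neurons, differed from these in having both controls alike, at 8.44 and 8.31 CPM against 4.54, 5.19 and 3.03 CPM (-0.97, SE 0.27).

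The median log2 fold change was -0.01 over 20 markers of homeostatic microglia, -0.16 over 19 tested genes of disease-associated microglia, 0.00 over 18 genes of antigen presentation and -0.03 over 20 tested interferon-responsive genes. With control replicate 2 added, these medians were -0.23, -0.37, -0.24 and -0.05, and without SCFA replicate 2 they were -0.21, -0.36, -0.21 and -0.12. With SCFA replicate 4 added they were -0.02, -0.17, 0.01 and -0.02. That of disease-associated microglia was 0.12 without control replicate 1 and -0.03 without SCFA replicate 3. Complement genes had the lowest of the medians, -0.29, with 5 of 16 positive. All SCFA libraries lay below both controls in 2 and above both in 0. The 2 lower genes are a share no higher than the 13.9% of all genes. Without control replicate 1 that median was 0.03, and without SCFA replicate 3 it was -0.11. *C4a*, one of these 2, was at 3.31 and 3.36 CPM in the controls and 1.96, 2.70 and 1.19 CPM with SCFA (-0.77, SE 0.38). *Cfp*, properdin, was at 22.9 and 38.5 CPM against 26.2, 23.5 and 14.6 CPM and overlapped (-0.52, SE 0.26). *P2ry13*, a purinergic receptor of resting microglia, was at 0.904 and 1.06 CPM against 1.75, 1.77 and 2.38 CPM (1.0, SE 0.43). *Gpnmb*, a marker of lipid-laden phagocytes that pigment cells also express, was at 52.6 and 8.44 CPM against 8.92, 22.1 and 13.6 CPM, with control replicate 1 apart from the rest (-1.05, SE 0.51).

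Of 16 tested scavenger and phagocytic receptors 7 were positive, with a median of -0.08. It was 0.11 without control replicate 1, -0.18 with control replicate 2 and -0.01 with SCFA replicate 4. *Megf10*, an engulfment receptor of glia, was at 15.3 and 19.1 CPM in the controls and 29.5, 24.8 and 31.2 CPM with SCFA (0.73, SE 0.19). *Pros1*, protein S, a ligand of the Mer receptor, was at 14.6 and 14.9 CPM against 22.1, 24.2 and 20.04 CPM (0.59, SE 0.19). *Msr1*, the class A scavenger receptor of macrophages, was near the floor, with 11 and 10 counts in the controls and 3, 4 and 0 counts with SCFA. Each of these 3 genes separated the groups. *Mertk* (0.21, SE 0.25), *Cd36* (0.76, SE 0.41), *Cd68* (-0.65, SE 0.34) and *Scarb1* (-0.12, SE 0.16) had an edgeR adjusted p of 0.596 or more. Of 16 Toll-like receptor genes 8 were tested, with a median of 0.10 and 4 positive. The median ran from -0.03 to 0.48 when each library was left out. Those fits tested 6 to 8 of the genes, so their medians are not over the same members.

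Collagen and matrix genes were split, with 16 of 32 tested genes positive and a median of 0.03, which ran from -0.27 without SCFA replicate 2 to 0.17 without SCFA replicate 3. All SCFA libraries lay below both controls in 6 of them and above both in 2. *Col6a1*, a chain of microfibrillar collagen VI, was at 32.8 and 51.6 CPM in the controls and 23.4, 22.1 and 24.4 CPM with SCFA (-0.85, SE 0.19). *Col9a2*, a chain of the vitreous collagen IX, was at 24.2 and 15.5 CPM against 9.03, 14.0 and 9.99 CPM (-0.85, SE 0.25). In these 2 genes the groups did not overlap. *Col9a3*, of the same collagen, was at 28.2 and 13.3 CPM against 8.82, 15.3 and 10.3 CPM (-0.86, SE 0.30), and *Col18a1*, the precursor of endostatin, at 93.6 and 56.9 CPM against 31.2, 62.6 and 42.7 CPM (-0.73, SE 0.26). SCFA replicate 2 lay between the controls in both. Markers of the ciliary epithelium, which also makes collagen IX, summed to 143 and 66.1 CPM in the controls and 42.1, 88.8 and 81.5 CPM with SCFA, and their part in these values was not tested.

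Lens crystallins, the abundant structural proteins of lens fibres, gave the largest fold changes of the comparison, and these came from SCFA replicates 2 and 3. Of 23 lens genes 18 were tested and 17 were positive. The median log2 fold change was 4.10, or 3.59 with the 4 genes whose controls were at the floor set at their bound. Without SCFA replicate 3 it was 2.22, over the 12 genes then tested. Without SCFA replicate 2, 12 were tested as well, so some lens genes passed the filter on low counts only because these libraries were high. The count of positive genes is in part set by this. *Crygc* had 0 and 1 counts in the controls and 9, 190 and 825 counts with SCFA, at least 101-fold higher against a floor of 3 counts per control library. *Crygs* was at 0.603 and 0.396 CPM against 0.980, 12 and 48.9 CPM (5.31, SE 1.22), and *Crybb2* at 2.21 and 2.57 CPM against 3.09, 41.7 and 104 CPM (4.37, SE 0.99). SCFA replicate 1 was near the controls in each of these genes. The lens channel gene *Mip* and the connexin gene *Gja3*, too low to be tested, had 1 and 0 counts in control replicate 1, 1 and 3 in control replicate 3, and 36 and 13 in SCFA replicate 3. The gamma-crystallin genes *Crygb*, *Crygc* and *Crygd* lie side by side on chromosome 1, and the 100 bases before the start that RefSeq gives them on GRCm38.p6 are shown, because each holds a TATA element at nearly the same place. The capitals mark TATATA, alone or as overlapping copies.
*Crygb* (chr1:65082291-65082390, minus strand): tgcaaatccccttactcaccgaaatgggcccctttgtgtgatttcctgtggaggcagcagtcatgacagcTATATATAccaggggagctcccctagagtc
*Crygc* (chr1:65073533-65073632, minus strand): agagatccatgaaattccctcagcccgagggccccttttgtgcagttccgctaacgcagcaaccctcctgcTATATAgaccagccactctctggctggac
*Crygd* (chr1:65063441-65063540, minus strand): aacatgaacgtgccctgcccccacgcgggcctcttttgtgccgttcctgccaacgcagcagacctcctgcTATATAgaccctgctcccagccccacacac
The element began at position -30 from the start in *Crygb* and *Crygd* and at -29 in *Crygc*. The sequence TATATA, which reads the same on both strands, occurred in this window in 702 of 27025 genes (2.60%).

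Pigment and RPE markers were lower with SCFA in 13 of 15 tested genes (median -0.64), a direction that depended on control replicate 1. The median was 0.53 without it, -1.25 without control replicate 3 and -0.54 with control replicate 2 added to both controls. *Pmel*, of the melanosome matrix, was at 45.3 and 3.03 CPM in the controls and 3.87, 3.15 and 6.13 CPM with SCFA (-2.48, SE 0.67). *Rdh5*, a retinol dehydrogenase of the visual cycle, was at 66.5 and 19.2 CPM against 21.9, 28.1 and 21.1 CPM (-0.86, SE 0.35). *Aldh3a1*, an abundant enzyme of the cornea, was at 7.18 and 0.726 CPM against 0.309, 0.442 and 0.535 CPM (-3.22, SE 0.71), and *Krt5*, a keratin of basal epithelium, at 6.28 and 0.726 CPM against 0.413, 0.0552 and 0.476 CPM (-3.48, SE 0.79). In both, control replicate 3 lay far nearer to the SCFA libraries than to control replicate 1.

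Of the other genes with smallest p among those lower, 3 that had both controls alike are given. *Slc38a8*, *Krt13* and *Fosl2* also met the rule and are not described. *Asprv1*, a skin protease, was at 5.87 and 7.39 CPM in the controls and 3.66, 3.26 and 2.08 CPM with SCFA (-1.13, SE 0.30). *Pla2g4e*, a phospholipase, was at 3.11 and 2.90 CPM against 0.980, 1.44 and 1.19 CPM (-1.32, SE 0.38). *Cfap53*, a protein of motile cilia, was at 2.71 and 3.03 CPM against 1.39, 1.05 and 0.714 CPM (-1.43, SE 0.41). The groups did not overlap in any of the 3.

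Mitochondrial transcripts gave no common picture. Of the 13 mRNAs of the mitochondrial genome 12 were positive, with a median of 0.14, but with the GC offset 4 were positive and the median was -0.06. It was -0.05 without control replicate 1, 0.39 with control replicate 2 and -0.06 with SCFA replicate 4. *mt-Co3*, a subunit of cytochrome c oxidase, was at 273 and 360 CPM in the controls and 225, 194 and 188 CPM with SCFA (-0.64, SE 0.17). *mt-Atp8*, of ATP synthase, was at 4.92 and 4.68 CPM against 7.43, 6.95 and 10.4 CPM (0.78, SE 0.27). These were the mRNAs of the list that separated the groups, 1 in each direction. *mt-Co2* (0.14, SE 0.16) and *mt-Atp6* (0.19, SE 0.20) overlapped. Mitochondrial tRNA and rRNA genes had a median of -0.54 over 19 tested, with 3 positive, which was -0.32 without SCFA replicate 3. *mt-Ty*, the tyrosine tRNA, was at 5.82 and 5.61 CPM against 2.79, 3.64 and 1.43 CPM (-1.12, SE 0.35). Nuclear genes of oxidative phosphorylation had a median of -0.07, with 27 of 82 positive, or -0.22 and 11 with control replicate 2. *Cox8b*, a muscle-type subunit of cytochrome c oxidase, was at 12.7 and 4.42 CPM against 5.62, 3.26 and 1.67 CPM and overlapped (-1.28, SE 0.46).

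Receptors for SCFAs were barely detected. *Ffar2* and *Ffar3*, the free fatty acid receptors, had at most 5 and 0 counts in a library, and *Hcar2*, the butyrate-responsive receptor of myeloid cells, had at most 7 counts, so none of these was tested. *Slc16a1*, the monocarboxylate transporter MCT1, was at 269 and 235 CPM in the controls and 319, 267 and 316 CPM with SCFA (0.25, SE 0.17). *Slc16a7*, the high-affinity transporter MCT2, was at 6.43 and 7.06 CPM against 9.70, 8.61 and 12 CPM (0.58, SE 0.24), with no overlap. The list of SCFA receptors and transporters was split. Of its 10 genes 6 were tested and 4 were positive, with a median of 0.04 and a range from -0.99 to 0.58. Of 11 histone deacetylase genes 2 were positive, with a median of -0.21. It was -0.19 with control replicate 2, -0.14 with SCFA replicate 4 and -0.06 with all libraries. All SCFA libraries lay below both controls in 5 of them and above both in 1. *Hdac3*, the catalytic subunit of the nuclear corepressor complex, was at 62.0 and 61.5 CPM against 48.8, 49.3 and 46.4 CPM (-0.36, SE 0.15). *Hdac9*, a class IIa enzyme, was at 51.8 and 57.7 CPM against 75.5, 72.6 and 91.0 CPM (0.54, SE 0.16).

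Heat shock genes were positive in 13 of 14 (median 0.26), and in 6 all SCFA libraries lay above both controls. The median was 0.15 without control replicate 3 and 0.16 without SCFA replicate 3. It was 0.13 with control replicate 2 (9 positive), 0.20 with SCFA replicate 4 (13 positive) and 0.06 with all libraries (8 positive). *Hsp90aa1*, an inducible chaperone, was at 1470 and 1413 CPM in the controls and 1839, 1760.0 and 2552 CPM with SCFA (0.51, SE 0.20). Vascular markers, of interest in a model of neovascularization, had a median of 0.16, with 12 of 20 positive. The median was 0.29 without control replicate 1, 0.10 without control replicate 3 and -0.04, with 9 positive, when control replicate 2 was added. With SCFA replicate 4 added it was 0.18. *Kdr*, the main receptor for VEGF on endothelium, was at 49.9 and 52.8 CPM against 92.1, 64.5 and 73.1 CPM (0.58, SE 0.18). *Plvap*, which forms the diaphragms of fenestrated vessels such as the choriocapillaris, was at 12 and 8.05 CPM against 5.98, 6.79 and 2.26 CPM (-1.0, SE 0.37). The groups did not overlap in either gene. Of 17 tested genes of VEGF signalling and hypoxia 13 were positive, with a median of 0.11. It was 0.24 without control replicate 1, 0.04 without control replicate 3, 0.07 with SCFA replicate 4 and -0.01, with 7 positive, with all libraries.

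The response was then set beside that of males at 7 dpl and of females at 3 dpl, each with 6 libraries that share none with those above. In fits of 4 groups together, males had 745 DEGs of 17535 genes (4.25%) and females at 3 dpl had 626 of 17286 (3.62%). In fits of their 2 groups alone, the form that gave 0 in females at 7 dpl, these counts were 687 and 302. Those fits had 3 control libraries each, against 2 in females at 7 dpl, so the counts differ in power and do not compare the responses. The medians of the GABA and glycine receptor list were 0.48 in females at 7 dpl, 0.33 in males at 7 dpl and 0.26 in females at 3 dpl. *Arl6ip6* had a log2 fold change of 1.08, 1.31 and 0.79, and *Egr1* of -1.44, -2.50 and -1.98, in the same order. Lens genes had medians of 4.10, 0.53 and 9.70, and pigment genes of -0.64, -0.48 and 1.74. Markers of homeostatic microglia had medians of -0.01, 0.22 and 0.36. Bipolar markers had 0.24, 0.02 and 0.35, and mitochondrial mRNAs 0.14, 1.31 and 0.53.

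The difference between the sexes at 7 dpl was tested as an interaction of sex and treatment. In edgeR 5 of 17535 genes passed the thresholds (0.0285%), *Gm26736*, *Gm44799*, *Gm48700*, *Gm49152* and *Gm43230*, and in all 5 the response was more positive in males. None of them has an established product. *Gm26736*, at chr6:4946568-4947803 (GRCm38), was at 4.45 and 7.17 CPM in female controls, 3.95 to 5.97 CPM in female SCFA libraries, 1.46 to 1.94 CPM in male controls and 7.23 to 23.1 CPM in male SCFA libraries. It had a log2 fold change of -0.28 (SE 0.40) in females and 3.29 (SE 0.39) in males, a difference of -3.57 (SE 0.54, edgeR adjusted p = 0.0762). None of the 5 passed when control replicate 1, control replicate 3, SCFA replicate 2 or SCFA replicate 3 was left out or when all libraries of the groups were used, and 1 passed without SCFA replicate 1. No protein-coding gene with an established name passed. *Eif5b*, a translation initiation factor, had the smallest p among these, with -0.38 (SE 0.17) in females and 0.86 (SE 0.16) in males and an edgeR adjusted p of 0.171.

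**Figure D5:**
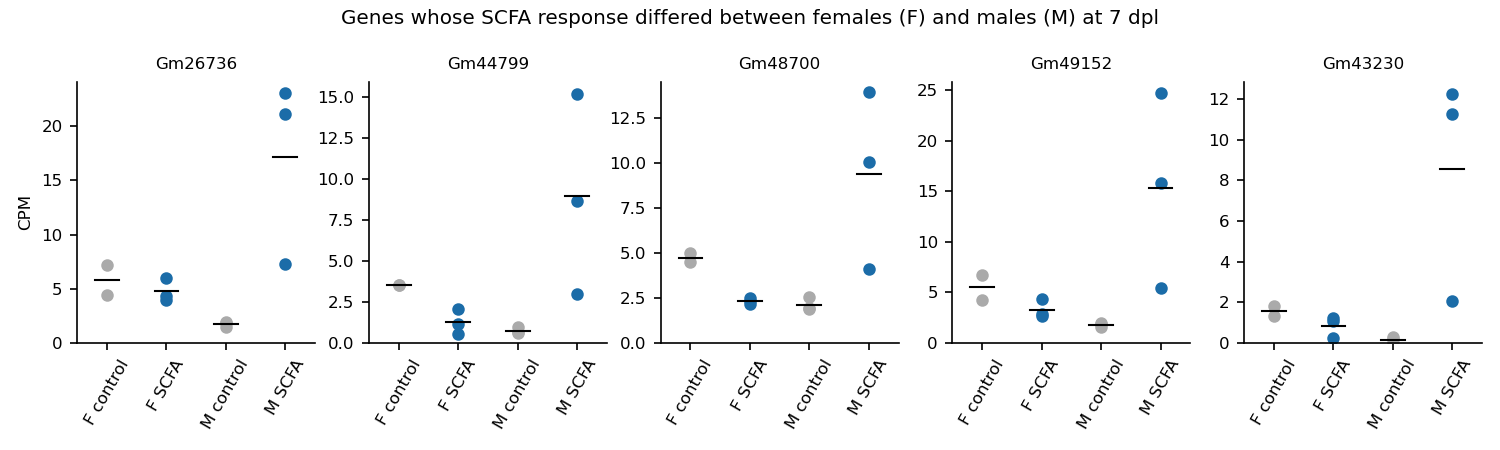
Level in CPM (y axes, from 0) of the 5 genes that passed the interaction test, in 2 female control, 3 female SCFA, 3 male control and 3 male SCFA libraries at 7 dpl, with group means as bars. All male SCFA libraries lie above the male controls, and female controls lie above male controls.

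Between 3 and 7 dpl in females no gene passed the same thresholds in the interaction of day and treatment with edgeR (0 of 17286, 0.00%), while 1153 had an unadjusted p under 0.05 and DESeq2 called 35. The smallest adjusted p of edgeR was 0.712, shared by several genes. One of them was *Sntg2*, a syntrophin of the dystrophin complex, with a log2 fold change of 0.06 (SE 0.13) at 7 dpl and -0.77 (SE 0.11) at 3 dpl. *Hk2*, a hexokinase, had 0.30 (SE 0.19) at 7 dpl and -0.93 (SE 0.17) at 3 dpl.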

How the data were processed

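RNA from laser-treated retinas was sequenced as 150-base reads. The authors deposited raw counts of reads per gene, without normalization. The submitters' processing notes name mm10 and DESeq2, and the aligner, counter, annotation and strand setting are not given in the sources used here. Genes were named by their identifiers in GENCODE M21, which lacks 37 of them.

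Genes with low counts were removed by filterByExpr and libraries scaled by TMM. The version of edgeR was 4.0.16, under R 4.3.3, and its quasi-likelihood test compared the groups. Its p-values were adjusted by the Benjamini-Hochberg method across the whole set of tested genes. The standard error (SE) is the size of a log2 fold change divided by the square root of F. DESeq2 1.42.0 was an alternative. Interactions were tested with 3 control and 3 SCFA libraries of males at 7 dpl or females at 3 dpl. A library with 3 counts or fewer of a gene (0.151 to 0.198 CPM) was at the floor for it, which covers counting error only. With 2 and 3 libraries, each 1 pool of animals, p-values measure the spread between pools. Python 3.11.15, numpy 2.4.6, pandas 2.3.3 and matplotlib 3.10.9 served for tables and figures, and the tests were tested on simulated data.

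Genes named are those the study names for females at 7 dpl; in each direction the 10 established protein-coding genes with smallest p, mean CPM of at least 1, absolute log2 fold change over 1 and no overlap; up to 3 tested members per list with smallest p; the top 5 of each interaction; and sex-linked genes. *Gm10925*, *Eif5b*, *Hk2*, the *Crygd* sequence and the SCFA receptors were added after their values were seen. The libraries and the 46 gene lists were chosen with earlier results of these data known, and lists are described without tests. Of the lists described, the inhibitory receptor, amacrine, collagen, lens, bipolar, gliosis, complement and antigen presentation lists share 1 to 4 members with the study's own list. Some genes that the rule covers are not reported here.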

Additional observations from a re-analysis of the deposited data

Results flagged for a closer look

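In 5 genes the response to SCFA at 7 dpl differed between the sexes by the interaction test of edgeR. The female minus male log2 fold change was -3.57 in *Gm26736*, -5.10 in *Gm44799*, -3.15 in *Gm48700*, -3.80 in *Gm49152* and -6.68 in *Gm43230*, with an adjusted p of 0.0762 in each. The log2 fold changes were -0.28, -1.48, -1.02, -0.72 and -0.87 in females and 3.29, 3.62, 2.13, 3.08 and 5.82 in males, in that order.

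The library labelled female control replicate 2 at 7 dpl, which the comparison does not use, held 308 counts of the Y-linked gene *Ddx3y*, 284 of *Eif2s3y*, 81 of *Kdm5d* and 111 of *Uty*, where the other female libraries at 7 dpl held 0. *Xist* was at 92.5 CPM in it.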

How the results depend on the processing

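The 0 DEGs of edgeR stayed at 0 with RLE scaling, a minimum of 10 counts, single fits of the first 31 or all 43 libraries, SCFA replicate 4, control replicate 2, all libraries, and the GC or length offsets, which were chosen after seeing the data. The count was 78 (33 higher, 45 lower) without the filter on low counts, 6 with DESeq2, 1 with a robust fit, and 0 to 14 leaving out 1 library: 14 without control replicate 3, all lower and including *Pmel*, *Egr1* and *Krt5*, 12 without SCFA replicate 1, 11 of them lens or crystallin genes, and 1 without SCFA replicate 3. With the replicate number as a block, which uses the pairs numbered 1 and 3 only, it was 18. Libraries of the same number correlated at -0.04 and 0.04. With 2 controls the correlations of an SCFA library with them mirror each other, so these values cannot show whether the numbers pair the samples. The 5 genes of the sex difference became 308 without the filter, 0 with a minimum of 10 counts, 101 with DESeq2, 0 with all libraries, 0 at an adjusted p under 0.05, and 0 to 1 leaving out 1 library. The 0 genes of the day difference became 439 without the filter and 35 with DESeq2.

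Among 69 named genes with log2 fold changes, 5 changed sign in some setting. Without control replicate 1 the values were 0.82 for *Gpnmb*, 0.53 for *Pmel*, 0.31 for *Rdh5* and -0.072 for *mt-Atp6*. With SCFA replicate 4 they were -0.062 for *mt-Co2* and -0.089 for *mt-Atp6*, and with the GC offset -0.060 and -0.020. Leaving out each library, the lowest and highest values were -1.82 and 0.82 for *Gpnmb*, -3.37 and 0.53 for *Pmel*, -1.48 and 0.31 for *Rdh5*, and -0.072 and 0.51 for *mt-Atp6*. The cause of these changes was not tested. With 2 control libraries the precision of all values is low, and genes under a few CPM rest on few reads.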
